A study of Mus musculus with 8 samples.

Results

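Footpad skin of Dkk4 transgenic mouse embryos was set against that of wild-type embryos at embryonic day E16.5. The comparison takes 4 of the 8 arrays of the series by their sample titles, 2 of transgenic and 2 of wild-type skin. All embryos were of the C57BL/6 strain. The transgenic embryos carried Dkk4 as a skin-specific transgene, the promoter of which the labels do not name, and the wild-type embryos carried none. No other allele or treatment is labelled. The 4 remaining arrays, 2 of each genotype at E15.5, entered the estimate of the spread and the test of a difference between ages. They also entered the choice of probes to test and of the brightest probe per gene. Sorting by signal and the scaling of single channels used them too. On each array the footpad RNA was labelled with the dye Cy3 and hybridised together with a Cy5-labelled reference, RNA pooled from mouse cell lines and mixed with embryonic stem cell RNA. The level of a probe is therefore given as log2 of the Cy3 over the Cy5 signal, and a difference as transgenic minus wild type on that scale.

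Wnt ligands bind Frizzled receptors and Lrp co-receptors and stabilise beta-catenin, which then switches on target genes with Lef and Tcf factors. Dkk4 is a secreted antagonist that binds the Lrp co-receptors and is itself induced by Wnt signalling in skin placodes. In the footpad, the site of mouse sweat glands, Wnt, the ectodysplasin ligand Eda and the hedgehog ligand Shh are known to act in succession as the gland bud forms and grows down into the dermis.

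Both transgenic E16.5 arrays lay on one slide and both wild-type E16.5 arrays on another, each scanned on its own day, with the transgenic arrays in positions 1 and 2 of their slide and the wild-type arrays in positions 3 and 4, so genotype and slide cannot be told apart in any value given here. The labels do not say whether the 2 arrays of a group came from separate embryos or litters, so that p-values measure the spread between these samples, which may be technical. Cy3 was well above background at 72.5% and 77.3% of probes on the transgenic arrays and at 72% and 67.1% on the wild-type arrays. Of 42006 probes, 31627 were tested, those whose Cy3 signal stood well above background in 1 or more of the 4 groups, on each array of that group. The log2 ratios of replicate arrays correlated at 0.9954 (transgenic) and 0.9946 (wild type) across probes, and those of different genotypes at 0.9849 to 0.9884. Probes are not independent replicates.

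The deposited files name no genes. Probe sequences were therefore matched to the start regions of genes in RefSeq (assembly GRCm38.p6, 250 bases before to 50 after each annotated start). This placed 259 probes in 253 genes, 130 of them with all 60 bases and 129 over the edge of a window with at least 30 bases. A match was unique among these windows only, so copies elsewhere, such as pseudogenes, were not seen. Whether a probe lies in an exon was not determined. The genes are those whose start, or whose neighbour's start, a probe happens to touch. They hold 5 of 577 genes in the lists drawn up for Wnt, Eda, Shh, sweat gland and cell type markers, so Dkk4, its pathway and the tissue label were not analysed here.

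Among the placed genes, 180 were tested and 27 differed between transgenic and wild-type skin (limma, adjusted p under 0.05), which is 15% against 13.8% of all probes. The share is near that of all probes and is no property of these genes. Counted by the brightest probe of each gene, 15 were higher in transgenic skin and 12 lower, by 0.16 to 0.90 on the log2 scale and 1 of them by at least 1.5-fold; the genotypes lay on different slides. Of these, Rpl38 had probes called in both directions, so 14 rose and 12 fell without it. The median difference over the 180 genes was 0, beside -0.005 over all probes tested. In tissue samples such as these, fewer cells of a type and less RNA per cell cannot be told apart.

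The sequences below belong to the 4 genes that kept their call and direction under each alternative that gave them a value. These alternatives numbered 19 for Gm36608, 20 for Arhgap27os3 and Rps27l, and 21 for Ndufa11. Many of them leave the difference unchanged by construction, so that they could not turn its direction. Each sequence is the first 30 bases of the probe, 5′ to 3′.
Gm36608: gagctatttggagccgatctaacggaagtg
Arhgap27os3: ggtggctcaggttggggtgttttcatgttt
Ndufa11: ggccgagcaagcccagctaggtatggcgat
Rps27l: tcccggaagttgctgaggggcgctcgaaag

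Gm36608, a long non-coding RNA gene without a described role, rose most. Its probe lies at chr19:3708108-3708167 on the minus strand, at the annotated start of the gene. The log2 ratio was 1.57 and 1.75 on the transgenic arrays and 0.73 and 0.78 on the wild-type arrays, so the groups did not overlap, as in 61.1% of all tested probes. The difference was 0.90 (SE 0.0857, limma adjusted p = 0.00367), a fold of 1.87, and it was 0.65 in the Cy3 channel alone. The Cy5 signal at this spot was well above background on 1 transgenic and 0 wild-type arrays, so the Cy3 value is the firmer one. At E15.5 the difference was -0.16, and the change between ages was 1.06 (limma adjusted p = 0.0455). That call held in 7 of 18 alternatives and was lost with Cy3 alone (0.72, limma adjusted p = 0.103), with adjusted p from 1.69e-06 to 0.192 over all 18.

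Arhgap27os3, a long non-coding RNA gene on the strand opposite Arhgap27, had log2 ratios of 2.32 and 2.30 in transgenic and 1.67 and 1.81 in wild-type skin. The probe lies at chr11:103344762-103344821 on the plus strand. Both transgenic arrays were above both wild-type arrays, by 0.57 on average (SE 0.0583, limma adjusted p = 0.00407), a fold of 1.49. At E15.5 the difference was 0.36.

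Ndufa11 encodes an accessory subunit of complex I of the mitochondrial respiratory chain. Its probe, at chr17:56717818-56717877 on the plus strand, gave -1.35 on both transgenic arrays and -1.69 and -1.82 on the wild-type arrays. The rise of 0.41 (SE 0.0513, limma adjusted p = 0.00619) was 0.45 with Cy3 alone and -0.06 at E15.5. Rps27l, which encodes a protein related to a component of the small ribosomal subunit, gave -1.61 on both transgenic and -1.90 and -1.92 on the wild-type arrays, a rise of 0.30 (SE 0.0424, limma adjusted p = 0.00743). For this gene 43 bases of the probe were matched, at chr9:66946093-66946135. In both genes the groups did not overlap, as in 4359 of the 4364 probes called, so this adds nothing to the call.

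Other genes that rose had diverse roles. Bcl11a, a zinc finger transcription factor known as a repressor of fetal globin genes, had log2 ratios of 3.12 and 2.98 in transgenic and 2.67 and 2.64 in wild-type skin (difference 0.39, limma adjusted p = 0.00832). Snrpf, a protein of the Sm ring of the spliceosome, gave -0.74 and -0.77 against -1.01 and -0.96 (0.23). Gng5, a gamma subunit of heterotrimeric G proteins, gave -0.57 and -0.55 against -0.76 and -0.83 (0.23). The groups of these 3 genes did not overlap, as in nearly all probes called. Nme2, a nucleoside diphosphate kinase, rose by 0.23 and Mrps21, of the small subunit of the mitochondrial ribosome, by 0.18. Gm9222 (0.31) and the non-coding Gm4718 (0.24) have no role that is described here. Gm4718 had the opposite sign in the Cy3 channel alone (-0.15, limma adjusted p = 0.16), where its Cy5 difference was -0.56.

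Cfap410, a gene for a protein linked to cilia, rose by 0.34 (limma adjusted p = 0.0125), from -1.17 in wild type to -0.82 and -0.84. Only 1 wild-type array entered this value, since the spot on the other was flagged as an outlier, and its spread is taken from the other groups. H2bc15, a gene for histone H2B, rose by 0.28 (limma adjusted p = 0.0191) but changed sign with Cy3 alone (-0.08, limma adjusted p = 0.398). It was placed by 33 bases, and near-identical histone copies could share its probe. Hspa1a, the inducible heat shock chaperone of the stress list, had Cy3 well above background on 2 transgenic and 0 wild-type arrays. The call (limma adjusted p = 0.0407) was on the ratio, while Cy5 was well above background on 0 transgenic and 0 wild-type arrays. With Cy3 alone the probe was not called (limma adjusted p = 0.0786). For a lower bound, each wild-type array took the higher of its own Cy3 signal and the lowest signal well above background. The transgenic Cy3 signal was then at least 1.14-fold higher. The nearly identical Hspa1b could share this probe, of which 30 bases were matched.

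The 12 falls measured 0.16 to 0.44, and with Cy3 alone 2 of the 12 were called, against 11 of the 15 genes that were higher. Over all probes called, 46.4% of the lower and 59.9% of the higher ones were also called with Cy3 alone. Ccdc33, a coiled-coil protein gene, fell by 0.44 (limma adjusted p = 0.0382), with 0.06 and -0.23 in transgenic and 0.44 and 0.26 in wild-type skin. With Cy3 alone its difference was 0.07, and with Cy5 alone 0.56, neither of which passed the test (limma adjusted p = 0.818 and 0.0957), so the fall is in the ratio and not in the sample channel. Adk, adenosine kinase, gave -1.37 and -1.39 against -1.15 and -1.08 (difference -0.26, limma adjusted p = 0.0169), but -0.09 with Cy3 alone (limma adjusted p = 0.334). Ndufb11, another accessory subunit of complex I, gave 0.57 and 0.54 against 0.78 and 0.75 (-0.21, limma adjusted p = 0.0241), and -0.16 with Cy3 alone (limma adjusted p = 0.0851). Lax1, a membrane adaptor of lymphocytes, fell by 0.18, and 6430550D23Rik (-0.25) and Gm3194 (-0.20) were also lower. With median centring the differences were -0.07 for Adk, -0.01 for Ndufb11 and 0.01 for Lax1, none of which passed the test.

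The remaining 6 genes that fell were read by probes at the far end of the gene. Neurl4, a protein of the centriole, gave 0.28 and 0.22 in transgenic and 0.47 and 0.51 in wild-type skin (difference -0.25, limma adjusted p = 0.0156). Sympk, symplekin, a scaffold of the machinery that cleaves and polyadenylates messenger RNA, gave 0.38 and 0.40 against 0.56 and 0.72 (-0.25, limma adjusted p = 0.0317). Podxl2, a sialomucin of the podocalyxin family, fell by 0.21. Mapkbp1, a protein of the MAP kinase cascade, and Zfp512b, a zinc finger protein, each fell by 0.18, and Slc12a4, a potassium chloride cotransporter, fell by 0.16. With median centring the differences were -0.05 for Neurl4, -0.07 for Sympk and -0.03 for Podxl2. Those of Mapkbp1 (0.02), Zfp512b (0.02) and Slc12a4 (0.01) changed sign. None of the 6 passed the test. The median of all probes moved to 0.105, and relative to that median all 6 were lower. Of the 12 falls, 2 stayed called with median centring, against 14 of the 15 rises.

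**Figure D1:**
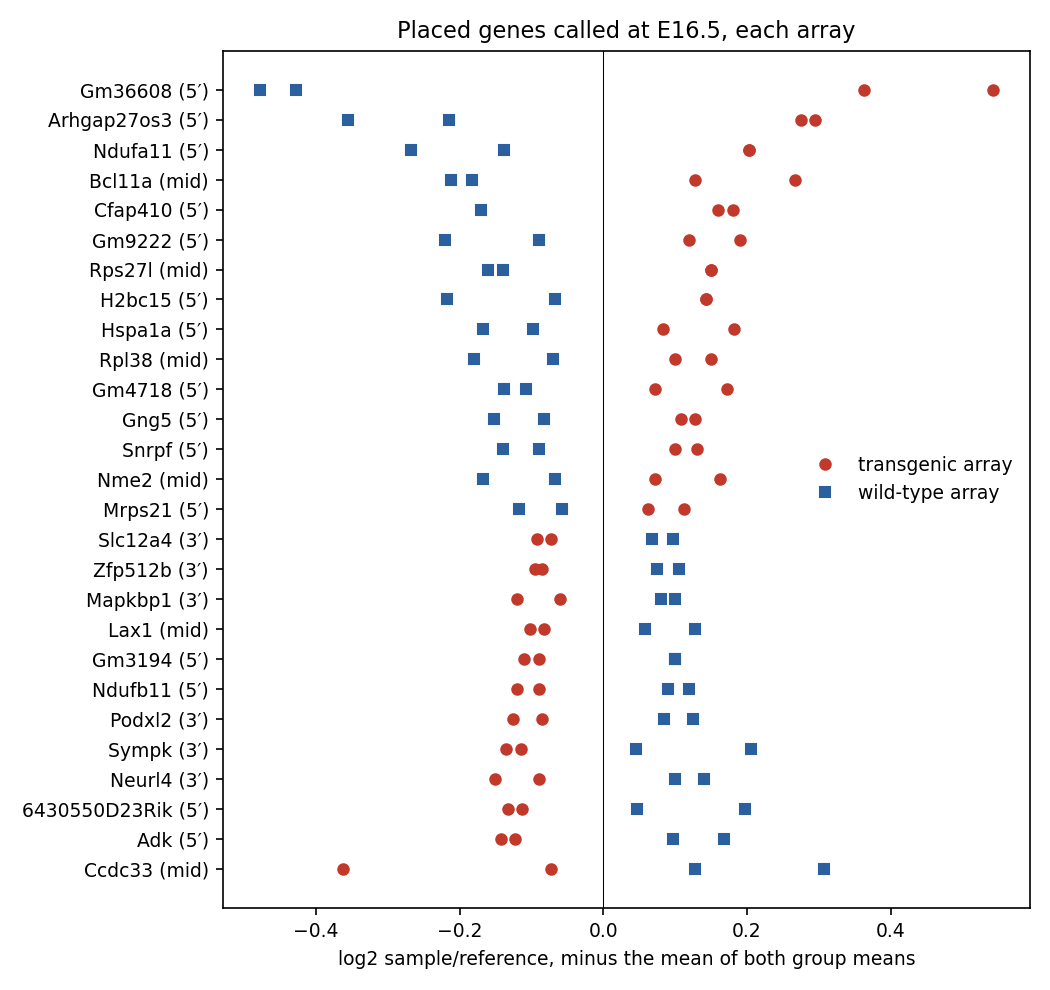
Log2 ratio of Cy3 over Cy5 on each E16.5 array for the 27 placed genes that were called, after subtracting the mean of the 2 group means (circles, transgenic arrays; squares, wild-type arrays). The mark after each gene gives where its probe lies: within 300 bases of the annotated start (5′), of the end (3′) or neither (mid); all 6 genes read near the end lie on the lower side.

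Of the probes just named, 5 hold the hexamer AATAAA, the signal that directs cleavage and polyadenylation at the end of a messenger RNA. The 30 bases around it are shown because this hexamer was also frequent among falls over the whole array. Capitals mark the hexamer.
Neurl4: tctgatttctaaggagccAATAAAtactgt
Sympk: gagctttgccttaacacaAATAAAagaggg
Zfp512b: attaaagtcactgtatcaAATAAAtgttta
Mapkbp1: cggatgtatgaaattgtcAATAAAcacaat
Slc12a4: ctgagcctgacttttttcAATAAAacattg
The probes lie at chr11:69913770-69913817 (48 bases matched), chr7:19054553-19054612, chr2:181582117-181582176, chr2:120027327-120027386 and chr8:105943596-105943652 (57 bases matched), in this order, on the strand of their gene.

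Of the placed probes tested, 28 lay within 300 bases of the annotated end of their gene and 100 within 300 bases of its start. Near the end 0 were called higher and 6 lower by limma (21.4% called, against 13.8% of all probes), and near the start 11 were called higher and 4 lower (15% called). Between these places 4 of 57 were called higher and 3 lower. The median difference was -0.049 near the end and 0.008 near the start, and at E15.5 it was -0.012 and -0.009. Probes near the end were far brighter, with a median Cy3 signal of 2100 against 71.5. The hexamer was present in 9 of the 28 and in 0 of the 100, and 5 of the 9 were called lower. This division was chosen after the values were seen, so it carries no test. A second probe of Sympk, 91 bases upstream, without the hexamer and also among the 28 near the end, gave 0.31 and 0.34 in transgenic and 0.34 on both arrays in wild-type skin (difference -0.02, limma adjusted p = 0.828).

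Across all tested probes, 2335 (7.38%) contained AATAAA as printed, and 3.11% its reverse complement TTTATT. Of the 2047 probes lower in transgenic skin 18.3% held it, and of the 2317 higher ones 4.01%. Read the other way, 16.1% of these 2335 probes were called lower and 3.98% higher, where all tested probes gave 6.47% and 7.33%. The median difference of the set was -0.08. Among 2932 hexamers found in at least 200 tested probes this was the lowest median. Hexamers that overlap it (TAATAA, -0.065, and AAATAA, -0.056) were also among the lowest, as were the G-rich GGGGGT (-0.063) and GTGGGG (-0.057). The variant signal ATTAAA was in 5.72% of lower and 2.59% of higher probes. All of these are calls between slides as well as between genotypes, and their number rests on single arrays. The number of the 2335 called lower fell whichever E16.5 array was left out. Without wild-type replicate 2 few calls remained in either direction. With median centring 25 of the 2335 were lower (1.07%) and 168 higher (7.19%), where all probes gave 0.705% and 13.2%. Relative to all probes, the median difference of the set was -0.06 to -0.092 when 1 E16.5 array was left out.

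The share called changed with where the hexamer lay in the probe, counted from base 1 at its 5′ end. With its first base at 41 to 55, 18.7% of 1277 probes were lower and 2.82% higher, and at 31 to 40 the shares were 15.9% and 3.03% of 561. At 1 to 10, where most of the probe lies beyond the hexamer, 9 of 139 were lower and 23 higher, with a median difference of 0.024. The order is thus turned in these 139 probes, a small class that was not counted under the alternatives. Whether the hexamer acts as a signal in any of these probes was not determined. The median log2 ratio of the whole set, relative to all tested probes of the array, was 0.053 and 0.064 on the transgenic and 0.103 and 0.119 on the wild-type arrays. It was positive on all 4 arrays, and the genotypes did not overlap.

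The shift was present in the sample channel: with Cy3 alone the median difference was -0.088 for the hexamer at 41 to 55 and -0.093 at 31 to 40. With Cy5 alone the corresponding medians were -0.005 and -0.009. At E15.5, where both genotypes shared 1 slide, they were -0.019 and -0.021. Relative to all probes, the set's median difference at E16.5 lay between -0.101 and -0.046 over the alternatives, with median centring at the upper end. There the set itself had a median of 0.059 and all probes one of 0.105. Probes with the hexamer from base 31 onwards were brighter (median Cy3 1420 and 1160, against 282 without the hexamer). The part of RNA quality, labelling and slide in this pattern was not tested. Without the probes that hold AATAAA, 3896 calls remained (13.3%), 2224 higher and 1672 lower.

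**Figure D2:**
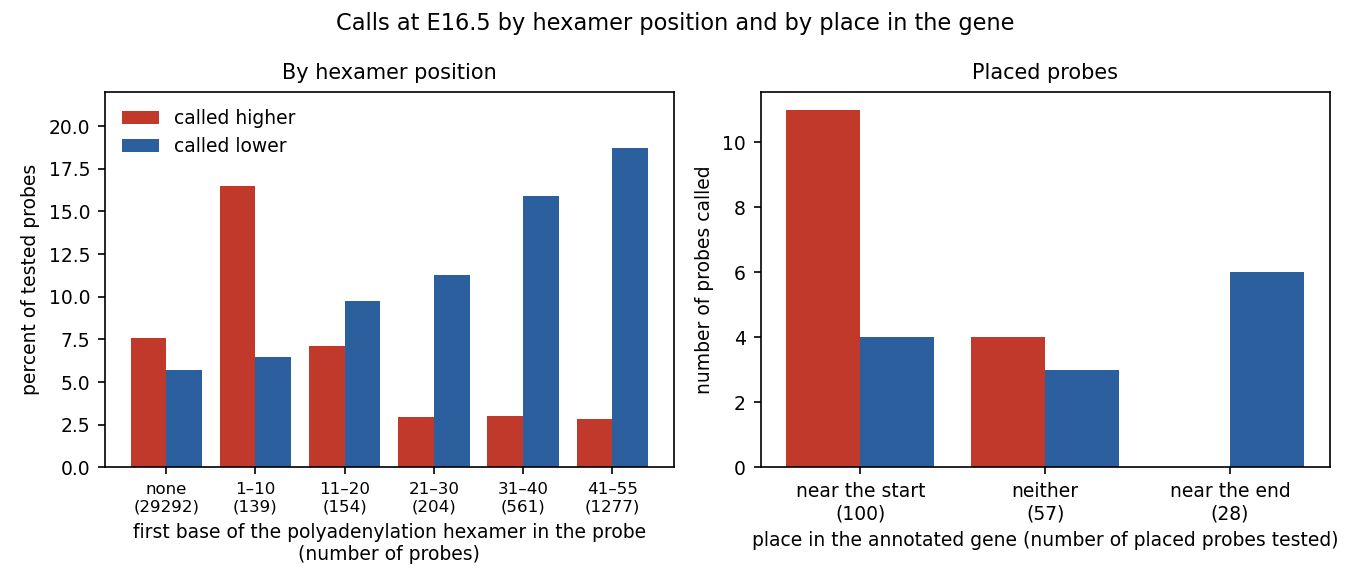
Left, percent of tested probes called higher or lower in transgenic skin at E16.5, by the position in the probe where the polyadenylation hexamer begins; right, number of placed probes called near the start of their gene, near its end (within 300 bases) or neither. Falls grow from 6.47% to 18.7% as the hexamer moves towards the 3′ end of the probe, and 0 of 28 placed probes near a gene's end were called higher.

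Rpl38, a protein of the large ribosomal subunit, was read by probes that share 48 bases yet moved in opposite directions. The bases that each has alone are in capitals, 12 in each, shown with their neighbours.
Z00075310-1: TACTCAGTTTCCtctgttgggcggggttaa
Z00032009-1: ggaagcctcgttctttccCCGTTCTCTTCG
They lie at chr11:114668526-114668585 and chr11:114668538-114668597 on the plus strand. Z00032009-1 gave -2.45 and -2.50 in transgenic and -2.67 and -2.78 in wild-type skin, a rise of 0.25 (limma adjusted p = 0.0468). Z00075310-1 gave -2.87 and -2.96 against -2.59 and -2.64, a fall (difference -0.30, limma adjusted p = 0.0211), and with Cy3 alone 0.07. No direction can be given for Rpl38, pseudogenes of which could also share these probes. Such disagreement was rare: of 912 pairs of tested probes that shared at least 25 bases, both were called in 80, and in 78 of these in the same direction.

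A probe that holds bases of the hairpin of the microRNA gene Mir682 on the same strand was also higher, with 0.42 on both transgenic and 0.08 and 0.10 on the wild-type arrays (0.33, limma adjusted p = 0.00694). The probe reads the labelled polyadenylated RNA and not the mature microRNA. Probes with hairpin bases of Mir703 (0.01, same strand), Mir3082 (-0.05) and Mir6340 (0.08, both opposite strand) were not called. That of Mir8120 was not tested. Madcam1, a cell adhesion molecule and a target of Eda signalling, was the sole member of the Wnt, Eda and Shh lists that was placed. Its log2 ratios were 0.16 and 0.10 in transgenic and 0.07 and 0.11 in wild-type skin, which overlap (difference 0.04, limma adjusted p = 0.583).

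Some placed genes, chosen after their values were seen, came near the threshold without passing it. Prdx1, a peroxidase of the cytosol, had values of -1.34 and -1.38 against -1.49 and -1.63 with no overlap, and a difference of 0.20 (limma adjusted p = 0.0538). Sec61b, of the protein channel of the endoplasmic reticulum, had 0.16 (limma adjusted p = 0.0678), and Mif, a cytokine, had 0.16 (limma adjusted p = 0.0809). A second probe of Prdx1 had a difference of 0.02, and its groups overlapped.

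Over all probes, 4364 of 31627 (13.8%) were called by limma, 2317 higher (7.33%) and 2047 lower (6.47%), with genotype and slide not separable. The median size was 1.23-fold for rises and 1.19-fold for falls. At least 1.5-fold differences were found for 133 rises and 42 falls, and at least 2-fold ones for 20 (0.0632%) and 5 (0.0158%). An unadjusted p under 0.05 was reached by 10074. With Cy3 alone 3599 probes were called (11.4%) and with the reference channel alone 46 (0.145%); 2336 probes were called in the same direction by the ratio and by Cy3. The count fell to 732 without wild-type E16.5 replicate 2, to 988 without transgenic E16.5 replicate 2, to 1576 without transgenic E16.5 replicate 1 and to 2875 without wild-type E16.5 replicate 1. A group is then represented by 1 array, which is assumed to vary like the others. With the reference channel alone the count instead rose whichever E16.5 array was left out, by far the most without wild-type replicate 1. It was 122 when only probes with both channels well above background on all 4 E16.5 arrays were tested. Median centring raised the share of higher calls from 53.1% to 94.9%, and of the 2047 falls 84.6% stayed below 0.

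**Figure D3:**
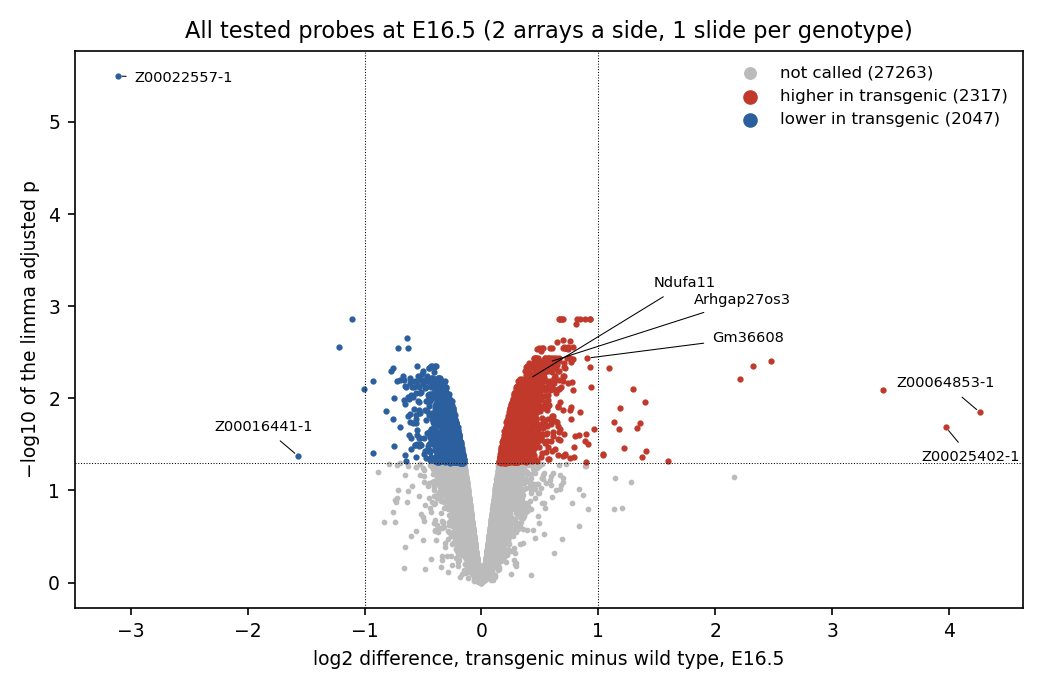
Log2 difference (transgenic minus wild type, E16.5) of each tested probe against -log10 of its limma adjusted p, with 2317 probes called higher, 2047 called lower and dotted lines at 2-fold and at the threshold. Most calls lie within 2-fold of 0, and Z00022557-1 stands apart at -3.11.

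Calls were more frequent among brighter probes. With the tested probes divided into 5 equal classes by mean Cy3 signal, 4.79% were called in the dimmest class and 20.1% in the brightest, where 44.7% of calls were higher. Divided by row on the array, the share of higher calls was 45.1% in the class of lowest row numbers and 62.1% in that of the highest, with 49%, 51.8% and 58.2% between them. The median difference was -0.018 and 0.012 in the outer classes. By base composition, 15.9% were called in the class lowest in GC and 11.4% in the highest. The part of these properties in the calls was not tested.

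The 25 probes that were called and at least 2-fold different (0.079% of those tested) fell into 3 patterns when all 8 arrays were compared. They were sorted by these signals after the values were seen. None could be placed in a gene.

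In 7 of the 20 rises, both wild-type E16.5 arrays were the lowest of all 8. Their Cy3 signal, with the local background subtracted, was 84.5 to 4000 on transgenic E16.5 replicate 1 and 77.4 to 3900 on replicate 2. It was 8.55 to 28.7 on wild-type E16.5 replicate 1 and 17.4 to 462 on replicate 2, and at E15.5 all values lay between 52.6 and 3230. The wild-type replicates were 2.03- to 21.2-fold apart, and the transgenic ones 0.876- to 1.03-fold. These ranges describe the choice of the class. The 2 leading probes were Z00064853-1, with Cy3 of 4000 and 3900 against 28.7 and 462 (log2 difference 4.27, SE 0.768, limma adjusted p = 0.0142), and Z00025402-1, with 3100 and 2930 against 18.5 and 391 (3.98, SE 0.817, limma adjusted p = 0.0207). Z00064853-1 holds the hexamer AATAAA near its 3′ end, though probes with the hexamer there were more often called lower. For Z00025402-1, wild-type Cy3 was well above background on 1 of 2 arrays, so its fold rests partly on a dim spot, as for 2 more of the 7. Leaving out wild-type replicate 1 lowered the differences to 2.75 and 2.36, and leaving out wild-type replicate 2 raised them to 5.78 and 5.59. Both calls were lost with a trended robust prior (limma adjusted p = 0.068 and 0.0886), with processed signals (0.0941 and 0.121) and without either transgenic array (0.0531 to 0.0773), and that of Z00025402-1 also with only the E16.5 arrays (0.0556) and in the series table (0.109). Of all tested probes, 11.8% had both wild-type E16.5 arrays lowest, and the share among probes called higher was not counted. At E15.5, on 1 slide, transgenic skin was also the higher in 7 of 7, by 0.32 to 0.69, none of which passed the test. The same sign was found in 4 of the other 13 rises. Over all probes called higher the median E15.5 difference was 0.049, and their signs were not counted. In 1 of the 7, wild-type Cy3 was not well above background on either array, and the rise there was at least 1.95-fold. For another, wild-type replicate 1 was left out as a flagged spot.

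In the other 13 rises, transgenic E16.5 replicate 2 was the highest of all 8 arrays, as in 14.6% of tested probes. Among all probes called higher this share was 31.6%. In the 13, transgenic replicate 2 stood 1.77- to 13.3-fold above replicate 1 (median 2.86-fold), while the wild-type replicates were 0.813- to 1.7-fold apart. In most of the 13, all 4 E16.5 arrays were above all 4 E15.5 arrays. The share of all tested probes with this order was not counted, and a class chosen by a high E16.5 array favours it. All E15.5 arrays lay on 1 slide and the E16.5 arrays on the others, so age and slide coincide here as well. Their log2 differences were 1.04 to 1.60, those of Cy5 alone -0.15 to 2.16 and those at E15.5 -0.37 to 0.25, and 10 of the 13 were also called with Cy3 alone. Without transgenic replicate 2, the probes called and at least 2-fold different numbered 12 in place of 25, and without replicate 1 they numbered 42.

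**Figure D4:**
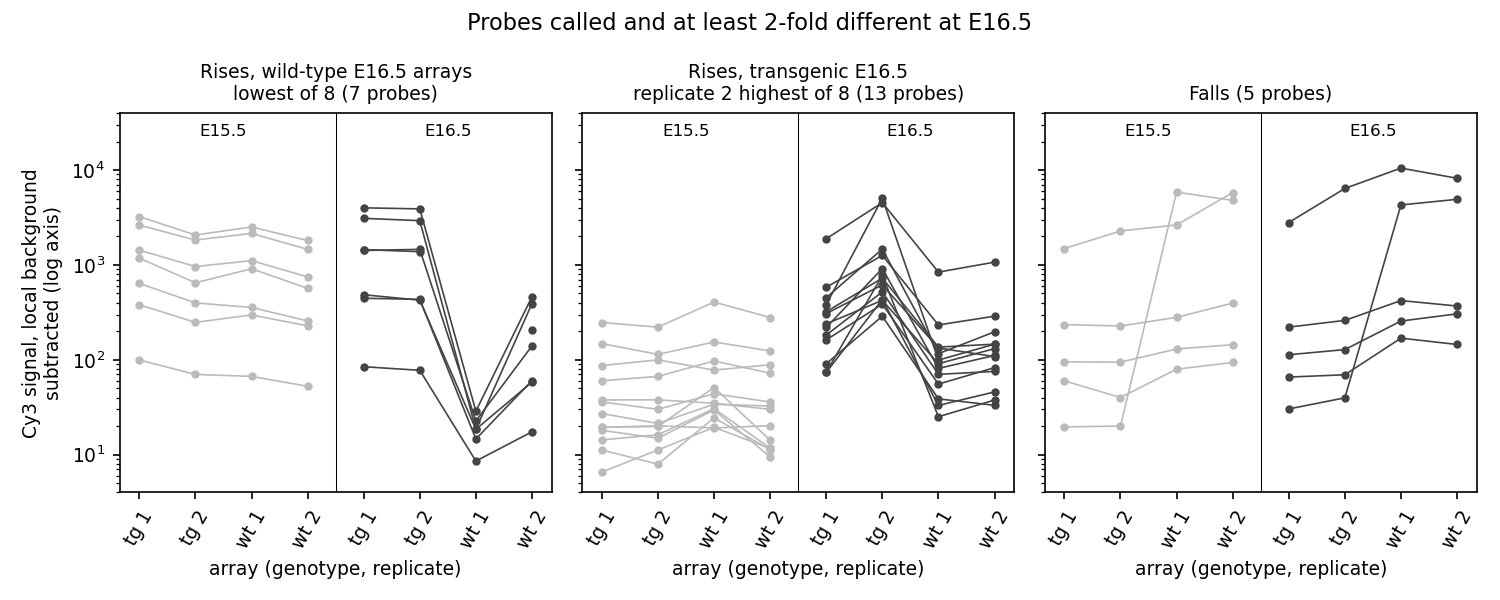
Cy3 signal (local background subtracted, log axis) on each of the 8 arrays for the 25 probes called and at least 2-fold different at E16.5, 1 line per probe and age (tg, transgenic; wt, wild type). Left, 7 rises with low wild-type E16.5 arrays; middle, 13 rises led by transgenic E16.5 replicate 2; right, 5 falls, of which Z00022557-1 alone is far lower in transgenic skin at both ages.

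All 5 falls had the same sign at E15.5, where the genotypes shared a slide. Over all probes called lower the median E15.5 difference was -0.014, and their signs were not counted. The deepest was at a probe without a gene, Z00022557-1, whose first 30 bases are given since it is the one probe with a large drop at both ages.
Z00022557-1: ccagtaacagacaacattcaaggctaagag
Its Cy3 signal was 30.3 and 39.7 on the transgenic and 4290 and 4920 on the wild-type E16.5 arrays, and the groups are far apart. The Cy5 signal, from a reference common to all arrays, was 6.98 and 5.5 against 698 and 827 at the same spots. The log2 difference of the ratio was -3.11 (SE 0.0775, limma adjusted p = 3.18e-06), that of Cy3 alone -5.99 and that of Cy5 alone -3.63 (limma adjusted p = 0.000805). At E15.5 the ratio differed by -3.31. Since Cy5 was not well above background on either transgenic array, the ratio there has no firm value, and Agilent's processed signals gave 0.30 (limma adjusted p = 0.268). Z00016441-1 was next, with Cy3 of 2800 and 6400 against 10500 and 8200 (-1.57, SE 0.413, limma adjusted p = 0.0423), and it fell short of the threshold without any one of the 4 arrays. The other 3 falls were smaller, and with these the 5 differed at E15.5 by -3.31 to -0.25.

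The test of whether the effect of the transgene differed between E16.5 and E15.5 called 29 of 31626 probes (0.0917%), and all 29 were also called at E16.5, against 1 (0.00316%) called at E15.5, which was Z00022557-1. Among placed genes these were Gm36608 and Cfap410. None of the 25 probes at least 2-fold different was among the 29. The probes higher at E16.5 had a median difference of 0.049 at E15.5 and the lower ones -0.014. The count was 0 with Cy3 alone and it ran from 0 to 103 when single arrays were left out, with wild-type E16.5 replicate 1 (96), replicate 2 (16), transgenic E16.5 replicate 1 (103) and replicate 2 (1) each moving it by over 1.5 times, as did every E15.5 array (0 to 5). The slides of E16.5 enter this difference too.

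**Figure D5:**
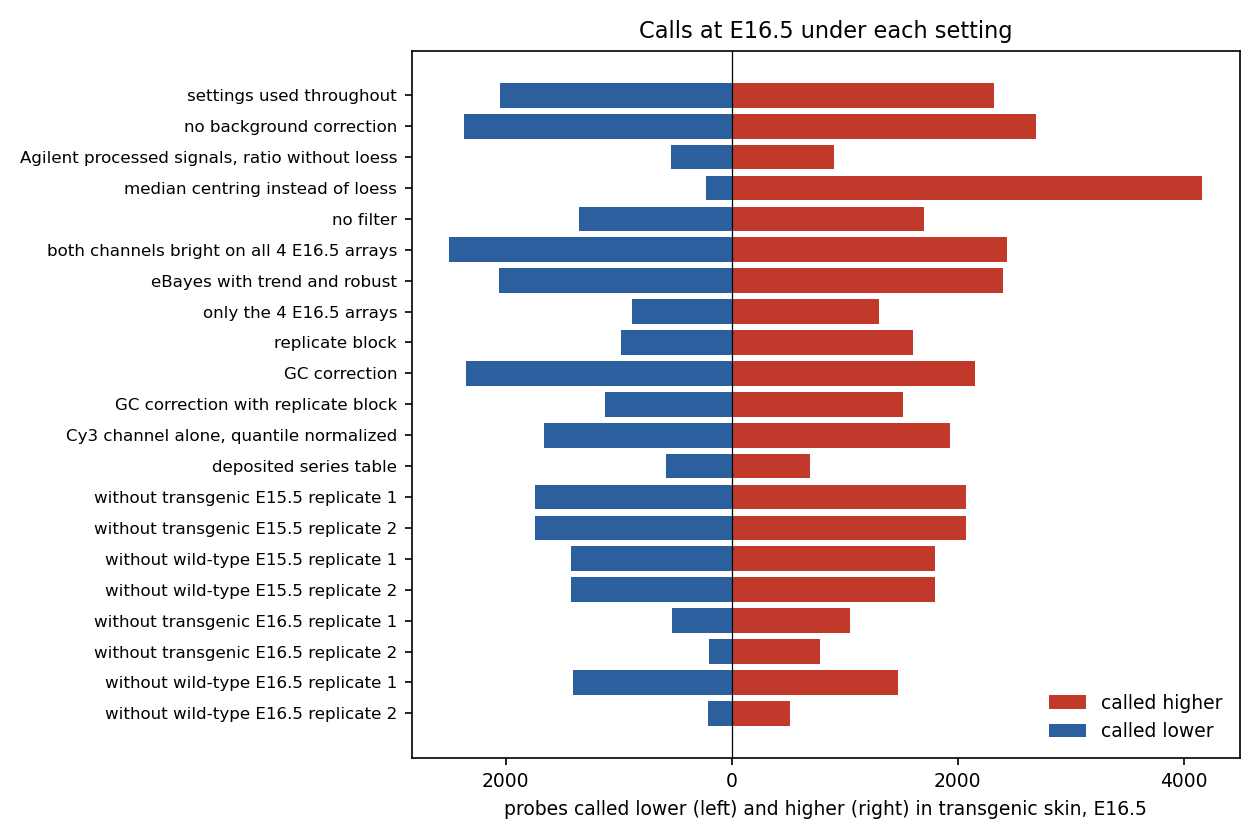
Number of probes called lower (left of 0) and higher (right of 0) in transgenic skin at E16.5 under each setting, in all of which genotype and slide coincide. Calls fall from 4364 to 732 when wild-type E16.5 replicate 2 is left out, and median centring moves the share of higher calls to 94.9%.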

How the data were processed

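RNA of footpad skin (Cy3) and a common reference (Cy5) was hybridised to 60-base mouse arrays, 8 in all. Per the file headers, the authors' scanner files hold spot intensity values from Agilent Feature Extraction 9.5.1.1. The deposited series table holds log10 processed ratios for 25030 spots and served as an alternative. Genes, Dkk4 among them, are not named in the files.

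From the mean and background intensity, ratios were corrected (normexp, offset 50), loess-normalized within arrays and averaged per probe, without 69 outlier spots, in R 4.3.3 with limma 3.58.1 and the data.table package (version 1.17.8). All 8 arrays shared 1 fit (4 residual and 4.22 prior degrees of freedom); p-values were adjusted by Benjamini-Hochberg over all tested probes, at 0.05. Groups came from sample titles.

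The planned naming by transcripts or proteins could not be made; the gene lists hold 5 placed genes of 577 and are not described further. Named were the placed genes with a call, list members, genes near the threshold and at most 2 unplaced rises and 2 unplaced falls. Members and lists were chosen with earlier results of these data known. Placement over window edges (at least 30 bases), the hexamer and the place in the gene were added after seeing the data. Replicate numbers did not pair samples (correlation of deviations -0.022 at E16.5, -0.099 at E15.5). The number of arrays limits the precision. The fit was tested on simulated data.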

Additional observations from a re-analysis of the deposited data

Results flagged for a closer look

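The effect of the transgene differed between E16.5 and E15.5 at 29 probes (limma, test of the difference). Among placed genes, Gm36608 was higher in transgenic skin by 0.90 at E16.5 and differed by -0.16 at E15.5, a change of 1.06 (limma adjusted p = 0.0455). Cfap410 was higher by 0.34 at E16.5 and differed by -0.34 at E15.5, a change of 0.68 (limma adjusted p = 0.0455), with 1 wild-type array at E16.5, whose spread is taken from the other groups. Over the alternatives that gave a value, the call held in 7 of 18 for Gm36608 and in 7 of 19 for Cfap410. It was lost for both with Cy3 alone (limma adjusted p = 0.103), without a filter (0.0571) and without any one of the 4 E15.5 arrays. At E15.5 the genotypes shared a slide and at E16.5 they did not, which leaves the slides of E16.5 inside both changes.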

How the results depend on the processing

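Calls at E16.5 numbered 4364, and 1437 with Agilent's processed signals, 2182 with only the 4 E16.5 arrays, 2576 with a replicate block, 2634 with GC correction and the block, and 1276 in the deposited series table. At least 2-fold were 82 with processed signals, 68 in the series table, 16 with a trended robust prior and 15 with only the E16.5 arrays. Higher calls made up 62.7% with processed signals, 94.9% with median centring, 55.6% without a filter, 49.4% with both channels bright, 59.7% with only the E16.5 arrays, 62.1% with the replicate block, 47.8% with GC correction, 57.6% with both of these and 54.6% in the series table. The test between ages called 56 without background correction, 1735 with median centring, 120 with both channels bright, 73 with the trended prior, 44 with the block, 1 each with processed signals and GC correction, and by limma 0 without a filter, with Cy3 alone and in the series table. Cy5 alone gave 4 without a filter and 122 with both channels bright. Leaving out 1 array gave 732 to 3809 calls, 12 to 42 at least 2-fold, 51.2% to 79.4% higher, 0 to 103 between ages, 819 to 5086 with Cy3 alone and 3 to 2506 with Cy5 alone. Signs turned with Cy3 alone for Ccdc33 (0.07), Gm4718 (-0.15), H2bc15 (-0.08) and Rpl38 Z00075310-1 (0.07), with median centring for Lax1 (0.01), Mapkbp1 (0.02), Slc12a4 (0.01) and Zfp512b (0.02), and with processed signals for Z00022557-1 (0.30); the cause was not tested. Of 32 named probes 23 kept their sign, and 4 their call, in all alternatives that gave them a value. Many of these alternatives could not change a sign. The filters, the trended prior, the E16.5 arrays alone and leaving out an E15.5 array return the same difference. Quantile scaling of the average intensity left the calls as they were too. Gene list medians and a random slide effect were not run.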
